A study of Mus musculus with 11 samples.

Results

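The data describe *Asgr1*, *Asgr2* and *Clec10a*, 3 of the 19058 genes measured, which encode a family of galactose-binding C-type lectin receptors. They were chosen by name, *Asgr1* because its level was lowest in *Tlr7* KO glands, so its values are given as a description and without a test. RNA was sequenced from 1 whole lacrimal gland of each of 11 male NOD mice, 3 WT, 5 *Tlr7* KO and 3 *Ifnar1* KO. WT mice were NOD/ShiLtJ, the nonobese diabetic strain whose males develop lacrimal gland inflammation. *Tlr7* KO mice carried a CRISPR/Cas9-made deletion of 2 bp in *Tlr7*, which encodes an endosomal receptor for single-stranded RNA, from 1 edited allele. *Ifnar1* KO mice were NOD.*Ifnar1* em16/em16 and lacked a chain of the type I interferon receptor. WT and *Tlr7* KO mice were 20 to 22 weeks old, while for the *Ifnar1* KO mice no age was found beyond the 8 to 30 weeks that cover all mice of the study. The same 3 WT mice served both WT comparisons.

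The asialoglycoprotein receptor is best known from hepatocytes. It binds circulating glycoproteins whose terminal sialic acid has been lost, so that galactose or N-acetylgalactosamine is exposed, and takes them up through clathrin-coated pits. *Asgr1* encodes its major subunit and *Asgr2* its minor subunit. *Clec10a* encodes the macrophage galactose-type lectin of macrophages and dendritic cells, and *Mgl2* is its closest paralog.

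These genes lie side by side on the plus strand of chromosome 11 (GRCm38, GENCODE M21). *Asgr1* (ENSMUSG00000020884) spans chr11:70054085-70057894, *Asgr2* (ENSMUSG00000040963) chr11:70092644-70106187, *Mgl2* (ENSMUSG00000040950) chr11:70130329-70137550 and *Clec10a* (ENSMUSG00000000318) chr11:70156197-70170834. The whole cluster covers 116750 bp, and *Asgr1* and *Asgr2* are 34749 bp apart. No other annotated protein-coding gene overlaps any of them, and genes of other types were not looked at. RefSeq start-site windows (GRCm38.p6, 250 bases before to 50 after the start) were found for 3 of the 4 genes, and *Clec10a* was without an entry. The windows of both receptor subunits are shown because *Asgr1* and *Asgr2* were both lower in *Tlr7* KO glands while lying in one cluster. They cover chr11:70053874-70054173 and chr11:70092394-70092693 on the plus strand, with capitals marking any match on either strand to an interferon regulatory factor-type repeat (GAAANNGAA), a STAT-type palindrome (TTCNNNGAA) or a PU.1-type core (GAGGAA).
Asgr1: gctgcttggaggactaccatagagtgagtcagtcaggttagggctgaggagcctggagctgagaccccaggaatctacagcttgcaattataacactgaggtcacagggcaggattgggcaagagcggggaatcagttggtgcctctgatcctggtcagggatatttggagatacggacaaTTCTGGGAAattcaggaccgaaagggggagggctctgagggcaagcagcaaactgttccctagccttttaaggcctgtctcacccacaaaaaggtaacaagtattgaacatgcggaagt
Asgr2: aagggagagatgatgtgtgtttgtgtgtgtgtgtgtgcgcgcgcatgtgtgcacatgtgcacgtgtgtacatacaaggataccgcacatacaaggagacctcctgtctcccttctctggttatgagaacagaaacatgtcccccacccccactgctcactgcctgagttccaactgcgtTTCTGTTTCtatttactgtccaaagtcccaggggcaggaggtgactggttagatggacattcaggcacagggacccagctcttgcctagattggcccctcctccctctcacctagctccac

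The *Asgr1* window held 1 STAT-type match, starting 69 bases before the annotated start, and no match to the other motifs. The *Asgr2* window held 1 interferon regulatory factor-type match, starting 71 bases before the start, and no match to the other motifs. Over all 32851 windows of 300 bases, 8.3% held the STAT-type letters, 8.56% the interferon regulatory factor-type letters and 28.3% the PU.1-type letters. A second *Asgr1* window (chr11:70054105-70054404) held 1 match to each motif, those to the STAT-type and interferon regulatory factor-type letters overlapping, and the *Mgl2* window (chr11:70130107-70130406) held 1 PU.1-type match. These are matches of letters, and no binding was measured.

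Libraries held 20512315 to 28814250 counts. *Tlr7* was at 2.39 ± 0.746 counts scaled to depth by the trimmed mean of M values (CPM, mean ± SD) in 3 WT, 0.776 ± 0.175 in 5 *Tlr7* KO and 0.563 ± 0.289 in 3 *Ifnar1* KO glands. *Ifnar1* was at 13.5 ± 2.53, 9.54 ± 1.08 and 9.02 ± 0.625 CPM in the same order. Transcripts of both edited genes were therefore still counted in their own knockouts, and each was about as low in the other knockout. In 3 mice, WT 3, *Ifnar1* KO 1 and *Ifnar1* KO 2, the salivary transcripts *Amy1* (41.5 to 508 CPM) and *Bpifa2* (135 to 1891 CPM) were high, whereas they were at most 1.21 and 1.78 CPM in the other 8 mice. Values without these 3 mice are given beside those of the members and the main lists. A lower level in a whole gland can come from fewer cells of a type or from less RNA per cell, which cannot be told apart here.

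*Asgr1*, the major receptor subunit, was the member with the widest range. Its counts were 197, 678 and 845 in WT 1 to 3, 429, 240 and 212 in *Ifnar1* KO 1 to 3, and 42, 26, 33, 16 and 35 in *Tlr7* KO 1 to 5. Scaled to depth, WT had 6.68, 28.9 and 23.1 CPM, *Ifnar1* KO had 14.7, 8.97 and 8.86 CPM, and *Tlr7* KO glands had 1.61, 1.13, 1.25, 0.661 and 1.84 CPM. Every *Tlr7* KO mouse was below every other mouse, whereas the *Ifnar1* KO mice lay within the WT range with TMM scaling. By library size alone *Ifnar1* KO 2 and 3, at 8.97 and 8.30 CPM, were below the lowest WT mouse at 9.60 CPM. The lowest WT value was 3.64 times the highest *Tlr7* KO value, and the lowest *Ifnar1* KO value was 4.83 times it.

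The mean of *Asgr1* was 19.6 ± 11.5 CPM in WT (SD, n = 3), 10.8 ± 3.31 in *Ifnar1* KO (n = 3) and 1.30 ± 0.453 in *Tlr7* KO glands (n = 5). WT mice spread over 4.32-fold, *Ifnar1* KO mice over 1.65-fold and *Tlr7* KO mice over 2.78-fold. As a description of the contrast that chose the gene, the fitted log2 fold change was -3.91 (SE 0.443) in *Tlr7* KO relative to WT, the 29th largest fall of 13937 genes tested. Among these genes, 32.8% were DE at an adjusted p under 0.05, 17.4% being lower and 15.3% higher in *Tlr7* KO, and for 14.5% all *Tlr7* KO mice were below all WT mice. This split moved with the scaling. With library size alone the median of all genes was -0.54 in place of -0.04, and 4275 genes were lower and 122 higher in *Tlr7* KO, beside 2431 and 2135 with TMM scaling. *Asgr1* was then at -4.34, and without the 3 mice with salivary transcripts it was at -3.77.

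*Asgr1* in *Ifnar1* KO glands was -0.87 (SE 0.478) on the log2 scale relative to WT, and the mice overlapped. It is also given without a test, since the choice of *Asgr1* set its fall in *Tlr7* KO against its other levels. In that comparison 19.2% of 13937 genes were DE, 12.4% of them being lower and 6.76% higher in *Ifnar1* KO as a share of all tested genes, and library size alone gave 1289 lower and 51 higher genes in place of 1735 and 942. The value of *Asgr1* ranged from -1.27 without WT 1 to -0.50 without WT 2, and it was -1.0 (SE 0.700) without the mice with salivary transcripts, which leaves a lone *Ifnar1* KO mouse whose spread is taken from the others.

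Between the knockouts, *Asgr1* was lower in *Tlr7* KO than in *Ifnar1* KO glands by a log2 value of -3.06 (SE 0.264), given without a test because the rule chose *Asgr1* for its low *Tlr7* KO level. It ranked 24th by fall among 13935 genes tested. Between the knockouts 1.79% of genes were DE by edgeR, 0.868% lower and 0.926% higher in *Tlr7* KO (121 and 129 genes, or 118 and 52 with library size alone). DESeq2 called 4.14%, and 16.3% had an unadjusted p under 0.05. All values in *Tlr7* KO lay below all values in *Ifnar1* KO for 5.42% of genes. The value was -2.76 without the mice with salivary transcripts.

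**Figure D1:**
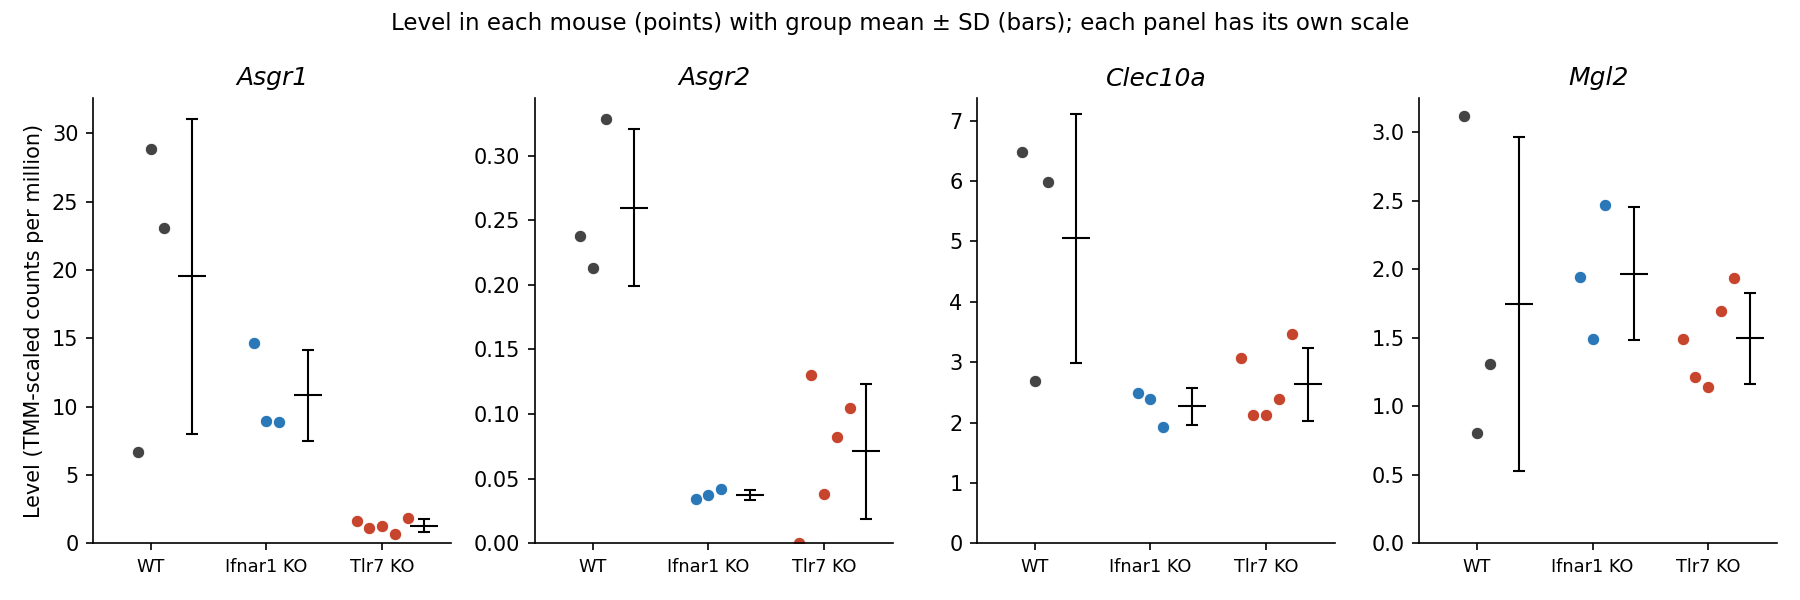
Level of *Asgr1*, *Asgr2*, *Clec10a* and *Mgl2* in each mouse (y axis, CPM, a separate linear scale from 0 in each panel) by group (x axis). Points are mice and bars are mean ± SD. *Asgr1* in *Tlr7* KO glands stays at or below 1.84 CPM, while the lowest of the other mice is at 6.68 CPM.

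*Asgr2*, the minor receptor subunit, was close to the limit of detection. Its counts were 7, 5 and 12 in WT, 1 in each *Ifnar1* KO mouse, and 0, 3, 1, 2 and 2 in *Tlr7* KO mice. Every WT mouse had more counts than every knockout mouse, 5 being the lowest in WT and 3 the highest in *Tlr7* KO, and the knockouts overlapped each other. In CPM, such a separation from WT was shown by 14.5% of tested genes in *Tlr7* KO and 21.2% in *Ifnar1* KO. The summed WT count of *Asgr2*, 24, was below the minimum of 30 for testing, so 2 of the 3 members were in the main fits and *Asgr2* was not.

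In WT *Asgr2* was at 0.259 ± 0.0607 CPM (SD, n = 3). Since no knockout library had more than 3 counts, 3 counts per library were taken as the floor. Against that floor, the WT mean of *Asgr2* gave bounds of 2.03-fold lower in *Tlr7* KO and 2.29-fold lower in *Ifnar1* KO (1.76 and 1.8 without the mice with salivary transcripts). These bounds leave out the counting error of the WT counts, so they are not strict lower limits. Both knockouts were at the floor, so no fold between them is given. The other deposited table gave *Asgr2* 4, 4 and 6 counts in WT and at most 2 in any knockout mouse, and its bounds were weaker, at 1.24-fold in *Tlr7* KO and 1.42-fold in *Ifnar1* KO.

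*Clec10a*, the macrophage lectin, had counts of 191, 63 and 219 in WT, 73, 64 and 46 in *Ifnar1* KO, and 80, 49, 56, 58 and 66 in *Tlr7* KO glands. Scaled to depth, WT had 6.48, 2.68 and 5.99 CPM, *Ifnar1* KO had 2.49, 2.39 and 1.92 CPM, and *Tlr7* KO glands had 3.06, 2.12, 2.13, 2.40 and 3.46 CPM. WT 1 and WT 3 were above all knockout mice, while WT 2 lay among the *Tlr7* KO mice and just above the *Ifnar1* KO mice.

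The means of *Clec10a* were 5.05 ± 2.06 CPM in WT, 2.27 ± 0.304 in *Ifnar1* KO and 2.63 ± 0.600 in *Tlr7* KO glands. Relative to WT the log2 value was -0.95 (SE 0.287) in *Tlr7* KO, or -1.57 with library size alone, given as a description. In *Ifnar1* KO it was -1.19 (SE 0.343, 95% interval -1.99 to -0.38), just short of the threshold (edgeR, adjusted p = 0.0503). All 3 *Ifnar1* KO mice were below all WT mice, by a margin of 1.08-fold, a separation that 21.2% of genes showed in that direction. With library size alone WT 2 was at 2.32 CPM, below *Ifnar1* KO 1 at 2.72 CPM and *Ifnar1* KO 2 at 2.39 CPM, and the groups overlapped. The adjusted p of *Clec10a* was 0.00369 without WT 2 and 0.155 without WT 1, and DESeq2 gave 0.0144. Without the mice with salivary transcripts *Clec10a* was at -1.28 in *Ifnar1* KO (adjusted p = 0.451) and at -0.81 in *Tlr7* KO. Between the knockouts *Clec10a* was at 0.21 (SE 0.206) in *Tlr7* KO relative to *Ifnar1* KO, given as a description because the choice of genes drew on the *Tlr7* KO levels. Its sign turned with library size alone (-0.00279), and it was 0.465 without the mice with salivary transcripts.

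*Mgl2*, the paralog beside *Clec10a*, was at 1.75 ± 1.22 CPM in WT, 1.97 ± 0.486 in *Ifnar1* KO and 1.50 ± 0.333 in *Tlr7* KO glands. None of its differences passed the test by edgeR: -0.24 (SE 0.397, adjusted p = 0.670) in *Tlr7* KO and 0.14 (SE 0.496, adjusted p = 0.863) in *Ifnar1* KO relative to WT, and -0.39 (SE 0.239, adjusted p = 0.443) in *Tlr7* KO relative to *Ifnar1* KO. The intervals of both WT comparisons, -1.13 to 0.65 and -1.02 to 1.30, are wide, and with library size alone the *Ifnar1* KO value of *Mgl2* turned to -0.26 (adjusted p = 0.849). WT mice ran from 0.809 to 3.12 CPM.

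**Figure D2:**
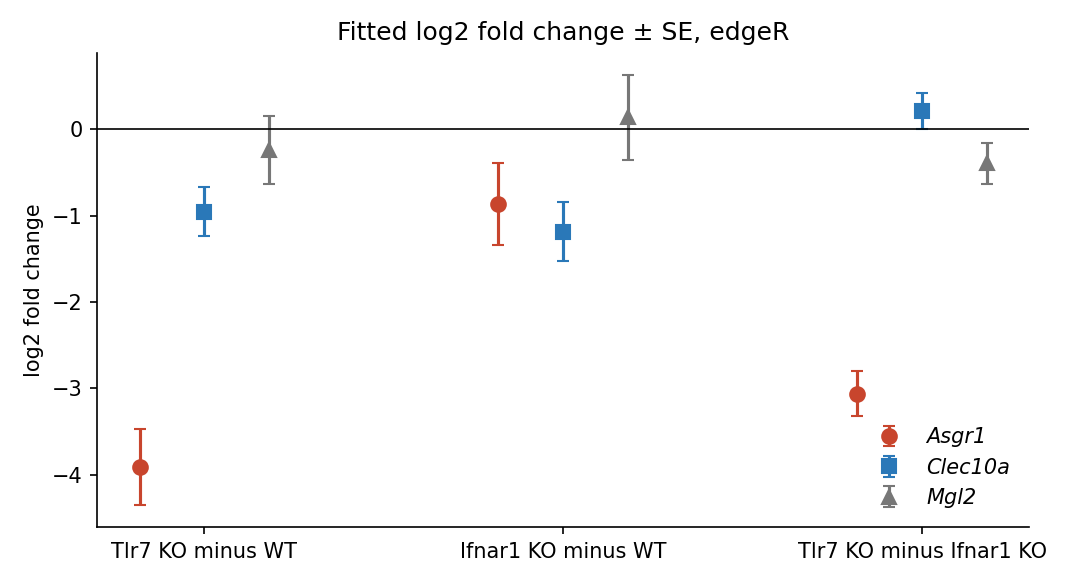
Fitted log2 fold change (y axis) of *Asgr1*, *Clec10a* and *Mgl2* in the 3 comparisons (x axis), with bars of 1 SE from edgeR. *Asgr1* is at -3.91 and -3.06 in the comparisons that include *Tlr7* KO and at -0.87 in *Ifnar1* KO relative to WT, while *Mgl2* stays between -0.39 and 0.14.

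Per length of annotated exons, *Asgr1* was the most abundant of these receptors in WT, at 12.3 ± 7.24 CPM per kb, ahead of *Clec10a* at 1.74 ± 0.712, *Mgl2* at 0.834 ± 0.581 and *Asgr2* at 0.165 ± 0.0385. In *Ifnar1* KO glands *Asgr1* was at 6.81 ± 2.08 CPM per kb and *Clec10a* at 0.783 ± 0.105. In *Tlr7* KO glands *Asgr1* (0.815 ± 0.285), *Clec10a* (0.908 ± 0.207) and *Mgl2* (0.714 ± 0.159) had overlapping SDs. *Asgr2* was at 0.0240 ± 0.00244 CPM per kb in *Ifnar1* KO and 0.0452 ± 0.0332 in *Tlr7* KO glands. The level of *Asgr1* per kb was thus several times that of *Clec10a* and *Mgl2* in WT and *Ifnar1* KO and close to theirs in *Tlr7* KO glands, while *Asgr2* was far below the others in every group.

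The ratio of *Asgr1* to *Clec10a* per length was 1.88, 19.6 and 7.03 in WT 1 to 3. It was 10.7, 6.83 and 8.40 in *Ifnar1* KO mice, and 0.957, 0.967, 1.07, 0.503 and 0.966 in *Tlr7* KO mice. Per length, *Asgr1* thus exceeded *Clec10a* in every WT and *Ifnar1* KO mouse and did so in 1 of 5 *Tlr7* KO mice. The lengths join all annotated exons, 1591 bp for *Asgr1* and 2899 bp for *Clec10a*, and the transcript forms in use were not measured. Without division by length, *Asgr1* was below *Clec10a* in every *Tlr7* KO mouse, and WT 1 had 6.68 CPM of *Asgr1* and 6.48 CPM of *Clec10a*.

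**Figure D3:**
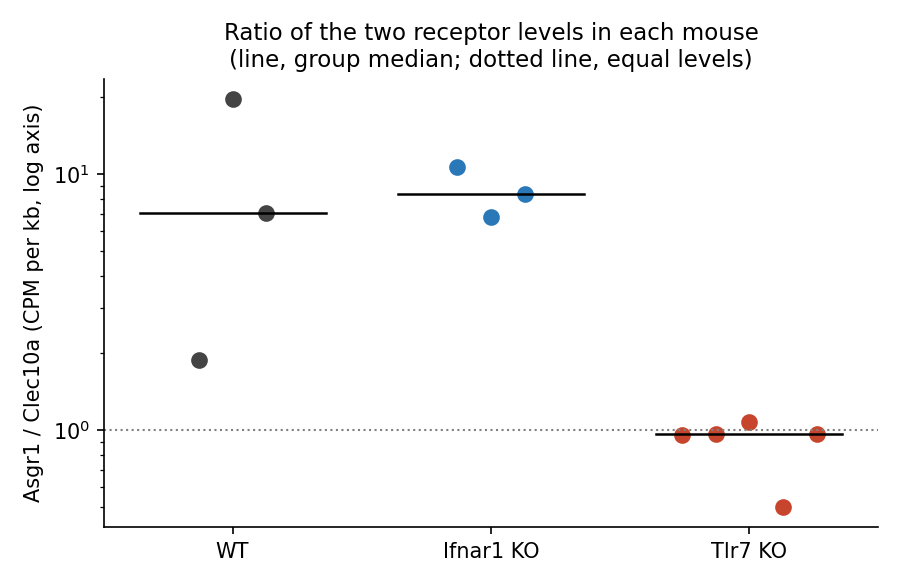
Ratio of *Asgr1* to *Clec10a* (y axis, CPM per kb over CPM per kb, log axis) in each mouse by group (x axis). Lines are group medians, and the dotted line marks equal levels per kb. The medians are 7.03 in WT, 8.40 in *Ifnar1* KO and 0.966 in *Tlr7* KO.

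Across the 11 mice *Asgr1* and *Clec10a* correlated at a Pearson r of 0.321 and a Spearman rho of 0.318 (log2 CPM), *Asgr2* and *Clec10a* at 0.664 and 0.409, and *Asgr1* and *Asgr2* at 0.399 and 0.209. These are descriptions of mice that share their groups. In WT the orders of *Asgr1* and *Clec10a* were opposite with TMM scaling, since WT 2 had the highest *Asgr1* and the lowest *Clec10a*. With library size alone *Asgr1* was at 9.60, 24.9 and 34.2 CPM in WT 1 to 3, so that WT 3 was highest and the orders were no longer opposite.

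The genes whose pattern over the 11 mice was most like that of *Asgr1*, out of 11502 with a mean of at least 1 CPM, were *Raph1* (r = 0.945), *Cldn7* (0.931), *Ccn1* (0.919), *Herc3* (0.919), *Rdh16* (0.916) and *Abtb2* (0.916). *Raph1* encodes lamellipodin, an actin regulator, and was at 4.12 CPM in WT, 3.60 in *Ifnar1* KO and 2.02 in *Tlr7* KO glands. *Cldn7*, a tight junction claudin, was at 7.12, 6.12 and 4.75 CPM, and *Herc3* at 4.04, 3.46 and 0.735 CPM in that order. Their differences between groups were smaller than that of *Asgr1*. Those most like *Clec10a* were *Itsn1* (r = 0.959), *Serping1* (0.953), *Sh2b3* (0.953), *Spon1* (0.946), *Xdh* (0.945) and *Snx30* (0.944). *Serping1*, the inhibitor of complement C1, was at 44.2 CPM in WT, 16.5 in *Ifnar1* KO and 21.1 in *Tlr7* KO glands. The leading 6 genes for *Asgr1* and for *Clec10a* had no gene in common. With an r of 0.321 between *Asgr1* and *Clec10a* themselves, no gene could match both this closely, so this adds nothing to that r.

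*Cldn7* is also a neighbour, 86200 bp before *Asgr1*. Of 66 protein-coding genes within 500 kb of *Asgr1*, with the members left out, 57 were in the table and 49 were tested. In *Tlr7* KO relative to WT, 15 were lower and 4 higher (38.8% DE against 32.8% of all genes), and their median log2 fold change was -0.24, beside -0.04 for all genes. Among the 12 nearest tested, again without the members, *Dlg4* (-1.38, adjusted p = 0.0326), *Cldn7* (-0.58, adjusted p = 0.0167) and *Phf23* (-0.28, adjusted p = 0.0295) were lower by edgeR. *Acadvl* (0.05), *Dvl2* (-0.08), *Gabarap* (0.24), *Ctdnep1* (-0.04), *Elp5* (-0.02), *Mgl2* (-0.24), *Slc2a4* (-0.52), *Eif5a* (0.22) and *Gps2* (-0.10) did not pass the test. Under library size alone 20 were lower and none higher (40.8% DE against 31.5% of all genes). Medians of the neighbours are given with TMM scaling only. The count of 19 was 5 without WT 3, the only mouse with salivary transcripts in this comparison, when 18.7% of all genes were DE. It was 9 without WT 1 (19.5% of all genes) and 12 without *Tlr7* KO 1 (23.9%).

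In *Ifnar1* KO relative to WT, 8 neighbours were lower and 1 was higher (18.4% against 19.2% of all genes, median -0.24), or 8 and 0 with library size alone (16.3% against 9.61%), so that the share went from just below the background to above it. That count was 0 when WT 1, WT 3, *Ifnar1* KO 1 or *Ifnar1* KO 3 was left out, where 13, 121, 0 and 0 of all genes were called. It was 16 without WT 2 (33.5% of all genes) and 2 without the mice with salivary transcripts (2.41%). Between the knockouts no neighbour was DE by edgeR (1.79% of all genes were). An unadjusted p under 0.05 was seen for 10 of 49 (16.3% of all genes), and DESeq2 called 3 (4.14% of all genes). Without *Ifnar1* KO 2 the count was 2 (6.29% of all genes), and without the mice with salivary transcripts it was 3 (2.38%). *Cldn7* had a log2 value of -0.36 (adjusted p = 0.131) and *Phf23* of -0.37 (adjusted p = 0.0616).

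**Figure D4:**
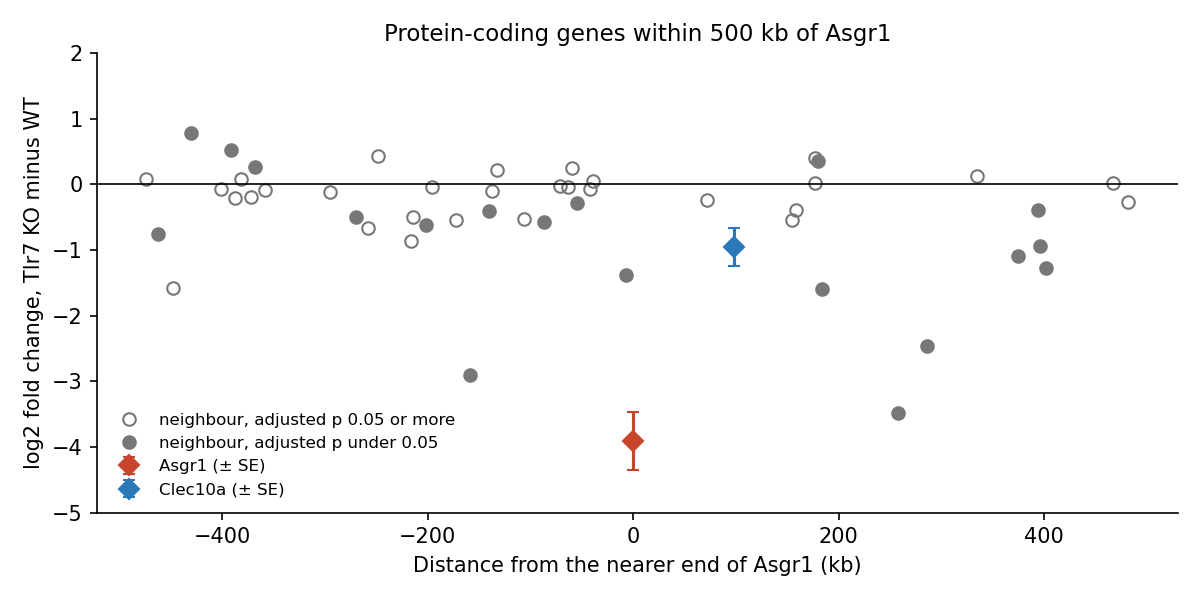
Log2 fold change in *Tlr7* KO relative to WT (y axis) of the 49 tested protein-coding neighbours against distance from the nearer end of *Asgr1* (x axis, kb), with *Asgr1* and *Clec10a* as diamonds with SE. Filled circles are DE. *Asgr1* at -3.91 lies below all neighbours, of which the lowest, *Alox12e*, named after its value was seen, is at -3.48. Since *Asgr1* was chosen for its low *Tlr7* KO level, its place below them is a description.

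Other C-type lectin genes were compared from a list of 61, of which 50 were in the table and 35 were tested. In *Tlr7* KO relative to WT, 8 were lower and 1 higher (25.7% DE, against 32.8% of all genes), with a median of -0.44. In *Ifnar1* KO relative to WT, 13 were lower and 2 higher (42.9% against 19.2%), with a median of -1.03. With library size alone the counts were 17 lower and 0 higher in *Tlr7* KO (48.6% against 31.5% of all genes) and 9 lower and 0 higher in *Ifnar1* KO (25.7% against 9.61%). The list thus had a smaller share of DE genes than the background in *Tlr7* KO with TMM scaling and a larger one with library size alone. Medians of the list are given with TMM scaling only. Library size alone moved the median of all genes to -0.54 in *Tlr7* KO and -0.31 in *Ifnar1* KO relative to WT. Between the knockouts, 1 gene was DE (2.86% against 1.79% of all genes), 15 of 35 had an unadjusted p under 0.05 (16.3% of all genes did) and DESeq2 called 4 (4.14% of all genes). With TMM scaling the median was 0.51 higher in *Tlr7* KO, where 8 of 35 genes had a value below 0. Library size alone moved the median of all genes to -0.19 in this comparison. The level of *Asgr1* was lower in *Tlr7* KO than in *Ifnar1* KO glands, the direction opposite to the median of the list. *Asgr1* was chosen for its low *Tlr7* KO level and the list was not, so this contrast is a description.

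The most abundant of these lectins was *Sftpd*, a soluble collectin. It was at 61.3 ± 24.0 CPM in WT, 22.4 ± 5.22 in *Ifnar1* KO and 27.6 ± 3.38 in *Tlr7* KO glands, and was lower in both knockouts (log2 values of -1.48, adjusted p = 0.0235, and -1.16, adjusted p = 0.00418). *Clec2d*, a ligand of an NK cell receptor, was lower by -0.86 in *Ifnar1* KO (adjusted p = 0.0284, or 0.0522 with library size alone) and by -0.93 in *Tlr7* KO (adjusted p = 0.0233). *Clec3b*, which encodes tetranectin, did not pass the test in either (-0.52 and -0.44), though with library size alone it was at -1.04 in *Tlr7* KO (adjusted p = 0.0314). *Cd72*, an inhibitory B cell receptor, was lower by -3.68 in *Ifnar1* KO (adjusted p = 0.0230) and by -2.37 in *Tlr7* KO (adjusted p = 0.00510).

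Among the largest falls in *Tlr7* KO were those of *Fcer2a* (-3.18), the low-affinity IgE receptor of B cells, and *Ly75* (-2.54), an endocytic receptor of dendritic cells. In *Ifnar1* KO they included *Fcer2a* (-4.67) and *Cd72* (-3.68). The genes that were higher with TMM scaling, and did not pass with library size alone, were *Clec2l* in *Tlr7* KO (1.08, adjusted p = 0.0273) and *Cd209b* (1.30, adjusted p = 0.0299) and *Cd209c* (1.31, adjusted p = 0.0265) in *Ifnar1* KO. *Cd209c*, of the DC-SIGN family, was also the gene that differed between the knockouts, lower in *Tlr7* KO by -0.97 (adjusted p = 0.0135). All of these are from edgeR. The count of 15 in *Ifnar1* KO was 0 when WT 1, WT 3, *Ifnar1* KO 1 or *Ifnar1* KO 3 was left out, as at most 121 of all genes were then called, and 4 without the mice with salivary transcripts (2.41% of all genes). The count of 9 in *Tlr7* KO was 19 without WT 2 (47.8% of all genes) and 6 without WT 1 (19.5%) or WT 3 (18.7%). The count of 1 between the knockouts was 10 without *Ifnar1* KO 2 (6.29%), 0 without *Ifnar1* KO 3 (0.66%) and 5 without the mice with salivary transcripts (2.38%).

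**Figure D5:**
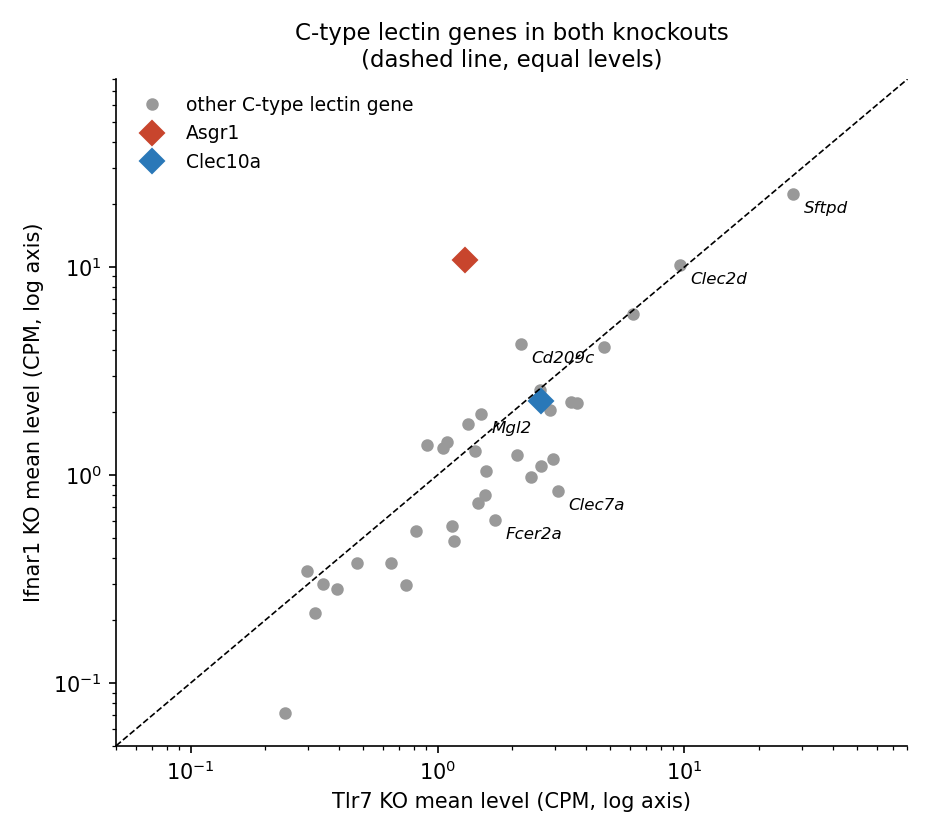
Mean level of 35 tested C-type lectin genes (grey) and of *Asgr1* and *Clec10a* (diamonds) in *Tlr7* KO (x axis) and *Ifnar1* KO glands (y axis), both in CPM on log axes. The dashed line marks equal levels. *Asgr1*, at 1.30 and 10.8 CPM, lies farthest above the line, and *Clec10a*, at 2.63 and 2.27 CPM, lies near it. Since *Asgr1* was chosen for its low *Tlr7* KO level, its place in the plot is a description.

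The sugars that these receptors bind are set by enzymes that add or remove the outermost residues. The counts for the lists that follow use TMM scaling. Of 22 sialylation genes listed, 18 were tested. In *Tlr7* KO relative to WT 7 were lower and 3 higher (55.6% DE against 32.8% of all genes), and in *Ifnar1* KO 7 were lower (38.9% against 19.2%). Scaled by library size alone, 10 were lower and 0 higher in *Tlr7* KO (55.6% against 31.5%), and 4 were lower in *Ifnar1* KO (22.2% against 9.61%). The most abundant, *Nans* and *Gne*, make sialic acid and were higher in *Tlr7* KO (0.75, adjusted p = 0.00178, and 0.28, adjusted p = 0.0227), but with library size alone they were at 0.28 (adjusted p = 0.243) and -0.20 (adjusted p = 0.428). In *Ifnar1* KO they were at 0.53 (adjusted p = 0.0649) and 0.38 (adjusted p = 0.106). *Cmas*, which activates sialic acid, did not pass the test in any comparison (-0.04 in *Tlr7* KO and 0.05 in *Ifnar1* KO relative to WT). *St6galnac2*, which adds sialic acid to N-acetylgalactosamine, was higher in *Tlr7* KO than in *Ifnar1* KO glands by 0.84 (adjusted p = 0.0102), the only gene of the 18 to differ between the knockouts by edgeR with TMM scaling (5.56% against 1.79% of all genes), and at 0.66 (adjusted p = 0.103) with library size alone.

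Of 31 galactose and N-acetylgalactosamine transferase genes, 25 were tested. In *Tlr7* KO 5 were lower and 3 higher (32% DE, close to the 32.8% of all genes), and in *Ifnar1* KO 5 were lower and 1 higher (24% against 19.2%). The counts with library size alone were 10 lower and 0 higher in *Tlr7* KO (40% against 31.5%), and 4 lower and 0 higher in *Ifnar1* KO (16% against 9.61%). No gene of this list was DE between the knockouts by edgeR (1.79% of all genes), 5 of 25 had an unadjusted p under 0.05 (16.3% of all genes did), and DESeq2 called 1 (4% against 4.14%). *Galnt3*, which starts O-linked chains, was higher in *Tlr7* KO by 0.54 (adjusted p = 0.00241, or 0.05 and 0.823 with library size alone), while *B4galnt1* (0.14), *Galnt10* (0.11) and *B4galt6* (-0.16) did not pass. *B4galt6* did pass with library size alone, at -0.60 (adjusted p = 0.0196).

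Galectins bind galactose without belonging to the C-type family. Of 6 tested, 1 was higher in *Tlr7* KO (16.7% against 32.8% of all genes), 3 were lower in *Ifnar1* KO (50% against 19.2%), and 2 were higher in *Tlr7* KO than in *Ifnar1* KO (33.3% against 1.79%). In *Tlr7* KO 2 were lower and 0 higher with library size alone (33.3% against 31.5%), while the other counts were 3 (50% against 9.61%) and 2 (33.3% against 1.22%). *Lgals3*, expressed in macrophages among other cells, was at 10.2 ± 3.37 CPM in WT, 3.99 ± 2.06 in *Ifnar1* KO and 10.7 ± 0.662 in *Tlr7* KO glands, and was higher in *Tlr7* KO than in *Ifnar1* KO (1.42, adjusted p = 0.0266, or 0.0417 with library size alone). *Lgals1* was lower in *Ifnar1* KO (-1.26, adjusted p = 0.0466), *Lgals12* was higher in *Tlr7* KO (0.54, adjusted p = 0.0102, or 0.984 with library size alone), and *Lgals8* (-0.05 in *Tlr7* KO and -0.20 in *Ifnar1* KO) did not pass. The order of *Lgals3* in the knockouts was the reverse of that of *Asgr1*.

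Of 25 genes of clathrin endocytosis, by which the receptor enters cells, all were tested. In *Tlr7* KO 7 were higher and 2 lower (36% DE against 32.8% of all genes), and in *Ifnar1* KO 3 were higher (12% against 19.2%). Library size alone gave 1 higher and 5 lower in *Tlr7* KO (24% against 31.5%), and 1 higher in *Ifnar1* KO (4% against 9.61%), so that in *Tlr7* KO the share was above the background with TMM scaling and below it with library size alone. Between the knockouts none was DE by edgeR or DESeq2 (1.79% and 4.14% of all genes), and 3 of 25 had an unadjusted p under 0.05 (16.3% of all genes). *Tfrc*, the transferrin receptor, was at 32.4 ± 5.0 CPM in WT, 82.4 ± 13.9 in *Ifnar1* KO and 89.1 ± 14.9 in *Tlr7* KO glands and was higher in both (1.33, adjusted p = 0.0207, and 1.46, adjusted p = 0.000852), also with library size alone (adjusted p = 0.0433 and 0.0159). *Cltc*, the clathrin heavy chain, was higher in *Tlr7* KO (0.29, adjusted p = 0.0303) but at -0.21 (adjusted p = 0.444) with library size alone, while *M6pr* (0.00) and *Ap2b1* (0.05) did not pass.

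*Clec10a* is also counted among genes of alternatively activated macrophages. Of 13 others, 10 were tested, and 1 was DE in each knockout relative to WT, *Il4ra*, the interleukin 4 receptor chain (-2.01, adjusted p = 0.00823, in *Tlr7* KO and -3.02, adjusted p = 0.0229, in *Ifnar1* KO), which is 10% of the list against 32.8% and 19.2% of all genes. *Stat6* (-0.26 and -0.13) and *Klf4* (-0.06 and -0.06) did not pass. In *Tlr7* KO 5 were lower with library size alone, *Stat6* among them (-0.79, adjusted p = 0.0286), and 1 in *Ifnar1* KO. These are 50% and 10% of the list, against 31.5% and 9.61% of all genes, so that in *Tlr7* KO the list went from below the background to above it. Between the knockouts none was DE by edgeR or DESeq2 (1.79% and 4.14% of all genes), and 2 of 10 had an unadjusted p under 0.05 (16.3% of all genes).

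Markers of the cells known to express these receptors were set beside them. Of 18 macrophage markers, 17 were tested. In each knockout 9 were lower and 1, *Mertk*, was higher than in WT (58.8% DE, against 32.8% of all genes in *Tlr7* KO and 19.2% in *Ifnar1* KO). Scaled by library size alone, 11 were lower in *Tlr7* KO (64.7% against 31.5%) and 9 in *Ifnar1* KO (52.9% against 9.61%), and none was higher. By edgeR none differed between the knockouts (1.79% of all genes did). An unadjusted p under 0.05 was seen for 10 of 17 (16.3% of all genes), and DESeq2 called 6 (4.14% of all genes). Their summed level was 556, 316 and 423 CPM in WT 1 to 3, 86.3 to 218 CPM in *Ifnar1* KO and 230 to 294 CPM in *Tlr7* KO glands. The summed level was lowest in *Ifnar1* KO, where *Asgr1* was intermediate. Dendritic cell markers summed to 21.1, 6.22 and 20.5 CPM in WT 1 to 3, so that WT 2, lowest in *Clec10a*, was lowest in these too. They summed to 3.22 to 7.03 CPM in *Ifnar1* KO and 4.86 to 9.41 CPM in *Tlr7* KO glands, and 4 and 2 of 8 markers were lower in *Tlr7* KO and *Ifnar1* KO than in WT (50% against 32.8% of all genes, and 25% against 19.2%, or 5 and 1 markers with library size alone, 62.5% against 31.5% and 12.5% against 9.61%). The part of these cells in the *Clec10a* values was not tested.

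Hepatocyte markers bear on *Asgr1*. Of 16, 10 were not among the genes of the main table. In the other table, *Alb*, *Apob*, *Fga*, *Ahsg*, *Cps1*, *Ambp* and *Hnf4a* had 0 counts over all 11 mice, and *Apoa1*, *Apoa2* and *Apoh* had at most 2 counts in any mouse. *Serpina1b*, *Cyp2e1*, *Ttr*, *Serpina1a* and *Fgb* had up to 182, 91, 35, 22 and 11 counts in a mouse of that table. *Serpina1a* and *Serpina1b* are near-identical copies of the alpha-1 antitrypsin gene, and reads may be split between them. *Serpina1a* was at 0.426 to 1.80 CPM in WT, 0 to 0.0836 in *Ifnar1* KO and 0 to 0.345 in *Tlr7* KO glands. Its counts in the knockouts were too few for a fold, though edgeR called it lower in both. *Serpina1b* was at 5.28 to 8.67 CPM in WT, 0.167 to 0.822 in *Ifnar1* KO and 0.493 to 1.82 in *Tlr7* KO glands, lower by -3.94 (adjusted p = 0.0207) and -2.88 (adjusted p = 0.00104) than in WT. *Fgg*, a fibrinogen chain, was by far the most abundant, at a mean of 160 CPM in WT, 322 to 437 CPM in *Ifnar1* KO and 319 to 366 in *Tlr7* KO glands, higher in both knockouts (1.25, adjusted p = 0.0229, and 1.09, adjusted p = 0.00171, or 0.0221 and 0.0199 with library size alone), and it made up most of the summed level of this list (133 to 208, 324 to 440 and 321 to 368 CPM). *Ttr* and *Cyp2e1* did not pass the test in either knockout. In each knockout 2 of the 5 tested were thus lower and 1 higher (60% DE, against 32.8% of all genes in *Tlr7* KO and 19.2% in *Ifnar1* KO). The counts were the same with library size alone (60% against 31.5% and 9.61%). None of the 5 tested differed between the knockouts by edgeR, DESeq2 or at an unadjusted p under 0.05. Of all genes, 1.79%, 4.14% and 16.3% did so by these rules. Kupffer cell markers summed to at most 2.07 CPM in any mouse. The part of hepatocyte-type transcripts in the *Asgr1* values was not tested.

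Of the lacrimal acinar markers, *Bhlha15*, *Pigr*, *Aqp5* and *Lpo* were counted in every mouse and *Cela1* was at or near 0. The most abundant was *Lpo*, lactoperoxidase, at 1592 ± 668 CPM in WT, 4758 ± 311 in *Ifnar1* KO and 4522 ± 190 in *Tlr7* KO glands. Of 5 acinar markers tested, 4 were higher and 1, *Amy1*, lower in *Tlr7* KO (100% DE against 32.8% of all genes), and 3 were higher in *Ifnar1* KO (60% against 19.2%). By library size alone 2 were higher and 1 lower in *Tlr7* KO (60% against 31.5%) and 1 was higher in *Ifnar1* KO (20% against 9.61%), with *Lpo* at 0.93 (adjusted p = 0.0352) and 1.19 (adjusted p = 0.0648). *Amy1* is also the transcript that was high in 3 mice, and without WT 3 its value in *Tlr7* KO was -0.01 (adjusted p = 0.996). B cell markers, all 6 of 6 lower in both knockouts (17.4% of all genes were lower in *Tlr7* KO and 12.4% in *Ifnar1* KO), summed to 218, 63.7 and 188 CPM in WT 1 to 3, 2.09 to 16.3 CPM in *Ifnar1* KO and 5.35 to 39.1 CPM in *Tlr7* KO glands. WT 2 had the lowest B cell, macrophage and dendritic cell marker sums of the WT mice, and its *Asgr1* was the highest of them with TMM scaling but not with library size alone. Whether these cells bear on *Asgr1* was not tested.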

How the data were processed

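RNA from 1 lacrimal gland per mouse was sequenced, each library being a separate mouse. Per the study's methods, the authors estimated transcripts with salmon, summed them to genes, and deposited a main table of 19058 genes in estimated counts, which are whole numbers in the file. They call it normalized, but it was read here as unnormalized: its totals were 1.64 to 1.84 times those of the further table in each mouse, and TMM effective library sizes ran from 1.91e+07 to 3.66e+07. A further table that the authors deposited gives whole-number counts of 39017 genes (12233586 to 16621073 per mouse), aligned with HISAT2 2.1.0 per the labels' processing notes, with the counter not given in the sources used here. The authors left out 1 *Ifnar1* KO mouse that resembled WT in expression and inflammation, and 1 column of the further table that belongs to no sample was not used.

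In R 4.3.3, genes with at least 30 counts summed over WT were fitted separately in each of 3 comparisons with edgeR 4.0.16 (TMM scaling, quasi-likelihood test, two-sided), and p-values were adjusted over all tested genes by Benjamini-Hochberg. Genes were called DE at an adjusted p below 0.05. DESeq2 1.42.0 was an alternative. The scripts were tested on simulated counts. Correlations used log2 CPM with a prior count of 2. Floors allow for low counts in the knockouts only and leave out the counting error of the WT mice. Log2 fold changes are the knockout relative to WT, or *Tlr7* KO relative to *Ifnar1* KO.

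The members and lists were chosen with earlier results of these data known. Genes named are the members, *Mgl2*, *Tlr7*, *Ifnar1*, up to 4 of the highest mean CPM in each list, the 3 called C-type lectins with the largest fold in each direction, the 12 nearest tested neighbours and the 6 of highest r with each member. *Amy1*, *Bpifa2*, the hepatocyte markers of the further table, *Alox12e* and *Mertk* were named after their values were seen. Some genes that this rule names are not reported here.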

Additional observations from a re-analysis of the deposited data

How the results depend on the processing

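*Asgr1* kept its direction in all 3 comparisons under every alternative run. For the comparisons with *Tlr7* KO this could hardly turn out otherwise, as every *Tlr7* KO mouse was below every other mouse and *Asgr1* was chosen for that level. With library size alone in place of TMM scaling, which moved the median of all genes to -0.54 in *Tlr7* KO and -0.31 in *Ifnar1* KO relative to WT, the bounds on *Asgr2* were 3-fold and 2.96-fold, *Clec10a* was at -1.57 in *Tlr7* KO and at -0.00279 between the knockouts (a reversed sign), and C-type lectins called numbered 17 in *Tlr7* KO and 9 in *Ifnar1* KO. *Clec10a* in *Ifnar1* KO passed the threshold with DESeq2 (-1.18, adjusted p = 0.0144), filterByExpr (-1.22, adjusted p = 0.0482), all 11 mice in a single fit (-1.16, adjusted p = 0.0133) and the other count table (-1.23, adjusted p = 0.0361), and ranged from -1.49 to -0.961 with 1 mouse left out. It passed with 1 of 6 mice left out (WT 2), the adjusted p otherwise being 0.104 to 0.155, and missed the threshold with library size alone (0.0772), size factors (0.0505), no gene filter (0.0516), the replicate block (0.141) and without the mice with salivary transcripts (0.451). The other table has fewer counts per mouse, and its bounds on *Asgr2* were 1.24-fold in *Tlr7* KO and 1.42-fold in *Ifnar1* KO. It called 0 lectins between the knockouts, and the share of all genes called in that fit is not given here. DESeq2 called 4 lectins and 3 neighbours there (4.14% of all genes), and the fit of all 11 mice called 17 neighbours in *Ifnar1* KO (36.8% of all genes).

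With 1 mouse left out, calls in *Tlr7* KO, in *Ifnar1* KO and between the knockouts ranged from 6 to 19, 0 to 22 and 0 to 10 lectins, and from 5 to 25, 0 to 16 and 0 to 2 neighbours, when 18.7% to 47.8%, 0% to 33.5% and 0.61% to 6.29% of all genes were called. Without the 3 mice with salivary transcripts, an alternative chosen after seeing the data, there were 6, 4 and 5 lectins and 5, 2 and 3 neighbours (18.7%, 2.41% and 2.38% of all genes). Mice share only a replicate number. Deviations of same-numbered mice correlated at -0.44 to 0.03 in the comparisons with WT and at 0.0645, 0.34 and 0.26 between the knockouts, where *Tlr7* KO 1 correlated best with *Ifnar1* KO 3. With the replicate number as a replicate block, *Asgr1* was at -3.65, -0.72 and -3.0, and 0, 0 and 5 lectins and 0, 0 and 2 neighbours were called, beside 14, 0 and 502 of all genes (4566, 2677 and 250 without it). Apart from the construction of an alternative, the cause of these moves was not tested. *Asgr2* is given by its bound under each alternative that allows one, and both knockouts were at its floor, so it has no value between them. At 3 counts or fewer per knockout library, depth limits *Asgr2* to a bound. Fitted with no minimum count, it was at -2.68 in *Ifnar1* KO (edgeR, adjusted p = 0.0403) and, with no test as the choice of genes drew on that group, at -1.87 in *Tlr7* KO. Such fits depend on the prior count, and at 3 counts or fewer per knockout library they do not replace the bounds.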
